A study of Mus musculus with 45 samples.

Results

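The RNA levels of 10 genes linked to pluripotency were followed through late two-cell embryos, morulae, the E4.5 inner cell mass (ICM) and embryonic stem cells grown in 2i/LIF medium (2iES cells), with and without degradation of the transcription factor GABPA. The genes were chosen by symbol as *Dppa2*, *Dppa3*, *Dppa4*, *Dppa5a*, *Zfp42*, *Utf1*, *Tdgf1*, *Eras*, *Pim2* and *Tcl1*, which are 10 of the 55385 gene identifiers in the deposited tables. All samples carried the Gabpa-dTAG/dTAG genotype, in which both *Gabpa* alleles encode GABPA fused to an FKBP degron and an HA tag, so the controls held the tagged protein too. The molecule dTAG13 directs such a fusion to degradation, and the controls received DMSO, its solvent. Late two-cell embryos (3 control and 3 treated libraries) were exposed to 1 μM dTAG13 from 6 h post fertilization (hpf) and collected at 30 hpf. Morulae (2 and 2 libraries) were exposed to 1 μM from 42 hpf. The E4.5 ICM (2 and 2) came from embryos placed in 1 μM at the early blastocyst stage and was collected at 100 hpf. 2iES cells (2 and 2), derived from the ES-E14 line with clones picked singly, received 0.5 μM for 24 h. Embryos came from in vitro fertilization with oocytes of superovulated females and were cultured in KSOM medium, and the ICM was freed of its outer layer by immunosurgery, so that it held both epiblast (EPI) and primitive endoderm (PrE). How many embryos or which cultures stand behind each library is not in the labels, so p-values measure the spread between these libraries, which may be technical.

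The genes encode proteins of several kinds. DPPA2 and DPPA4 form a heterodimer that binds chromatin and acts upstream of genes of the two-cell state and of germline genes, DPPA3 (also called STELLA) is a maternally supplied protein that restrains UHRF1 and so the maintenance of DNA methylation, and DPPA5A is an RNA-binding protein abundant in pluripotent cells. ZFP42 (REX1) is a zinc-finger protein used as a marker of naive pluripotency, and UTF1 is a chromatin-associated factor of undifferentiated cells. TDGF1 (CRIPTO) is the membrane co-receptor of NODAL. ERAS is a constitutively active RAS-like GTPase that feeds phosphatidylinositol 3-kinase, TCL1 is a co-activator of the kinase AKT, and PIM2 is a serine/threonine kinase that promotes growth and survival.

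The libraries summed to between 9457933 and 27660132 expected counts, with morulae lowest at up to 12382705. Relative to the variance of sampling, libraries of the same group differed most between the 2 DMSO libraries of 2iES cells, with a ratio of 16.1 for the median gene. The ratio was lowest in the E4.5 ICM, at 1.63 with DMSO and 1.69 with dTAG13. It also grows with depth, and the DMSO libraries of 2iES cells were the deepest. Degradation acts on the protein, so the *Gabpa* transcript is no check of the labels. It lay between 87.3 and 116 TPM (a share of all transcripts, corrected for gene length) with DMSO and between 141 and 162 TPM with dTAG13 in late two-cell embryos, and at 10.1 to 11.2 and 27.3 to 27.5 TPM in the E4.5 ICM. Of the markers that define the labelled cells, all 10 of PrE and 7 of 8 of EPI averaged at least 1 TPM in the DMSO ICM, and PrE markers summed to only 3.45 to 5.18 TPM in DMSO 2iES cells.

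*Dppa2* (chromosome 16 from 48303908 to 48319723 on GRCm38) and *Dppa4* (16 from 48283733 to 48294237) are neighbours on the same strand, 9.67 kb apart with no coding gene between them. *Eras* (X from 7924276 to 7928607) and *Pim2* (X from 7878262 to 7883432) are 40.8 kb apart, with 5 coding genes between them. The others are *Dppa3* (6 from 122626410 to 122630272), *Dppa5a* (9 from 78367052 to 78368177), *Zfp42* (8 from 43295063 to 43306980), *Utf1* (7 from 139943789 to 139945112), *Tdgf1* (9 from 110939603 to 110946158) and *Tcl1* (12 from 105216750 to 105222793). RefSeq promoters on GRCm38.p6, from 250 bases before the transcription start to 50 after it, were at hand for 6 of the 10 genes (*Utf1*, *Zfp42*, *Tdgf1*, *Tcl1*, *Pim2* and *Eras*). GABPA belongs to the ETS family, whose members bind DNA around GGAA. The letters CCGGAAGT were in none of the 6 windows and in 3.89% of all 32851 promoters, CCGGAAG in none and in 8.86%, and the shorter CGGAAG, which both longer words contain, in 1 (*Pim2*) and in 16.9%, each searched on both strands. A pair of further words was searched after the sequences had been read. The octamer ATTTGCAT, the letters bound by POU factors such as OCT4, was in the *Zfp42* and *Pim2* windows and in 1.74% of all promoters. The GC box GGGCGG, the letters bound by SP1, was in all 6 and in 35.7%. A match describes the letters and shows no binding, and the absence of an exact word shows no lack of it. The paper gives *Tdgf1* and *Dppa4* as examples of early ICM genes whose promoters GABPA bound in the E4.5 ICM. It counted promoter peaks over a wider window and searched motifs with a matrix, not with exact words. The promoters of 3 genes are printed 5′ to 3′ on the strand of the gene, with CGGAAG, the octamer and the GC box in capitals on either strand. They are *Pim2*, the 1 gene with CGGAAG (from base -178 to -173 before the start, with octamers starting at -202 and -123), *Eras*, whose RNA fell most, and *Zfp42*, whose RNA changed least in the E4.5 ICM.
Pim2 (chrX:7878056-7878355, plus strand): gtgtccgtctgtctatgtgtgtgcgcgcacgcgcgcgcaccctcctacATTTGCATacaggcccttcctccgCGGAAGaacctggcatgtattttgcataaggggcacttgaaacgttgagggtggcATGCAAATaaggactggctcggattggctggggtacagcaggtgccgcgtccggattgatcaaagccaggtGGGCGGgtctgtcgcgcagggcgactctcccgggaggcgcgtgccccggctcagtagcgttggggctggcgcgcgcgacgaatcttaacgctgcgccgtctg
Eras (chrX:7928558-7928857, minus strand): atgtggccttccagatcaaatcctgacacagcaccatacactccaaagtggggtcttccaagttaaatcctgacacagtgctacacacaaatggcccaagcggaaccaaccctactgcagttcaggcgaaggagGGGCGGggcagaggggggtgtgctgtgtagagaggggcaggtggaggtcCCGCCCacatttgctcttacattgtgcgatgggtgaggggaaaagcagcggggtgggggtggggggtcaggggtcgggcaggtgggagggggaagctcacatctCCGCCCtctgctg
Zfp42 (chr8:43306960-43307259, minus strand): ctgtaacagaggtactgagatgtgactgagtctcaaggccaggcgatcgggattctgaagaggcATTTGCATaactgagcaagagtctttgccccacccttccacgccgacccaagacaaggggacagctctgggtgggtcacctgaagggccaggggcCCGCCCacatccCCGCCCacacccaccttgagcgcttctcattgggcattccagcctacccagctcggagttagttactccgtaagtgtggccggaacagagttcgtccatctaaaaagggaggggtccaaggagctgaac

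Levels are given as TPM, which are per length and can be compared between genes, and the plot of TPM by library shows all 18 libraries. With DMSO, the genes followed different courses. *Dppa3* was high in the first stages, at 9167 ± 902.5 TPM (SD, n = 3) in late two-cell embryos and 7956 ± 1571 TPM (n = 2) in morulae, which overlapped. It was at 1412 ± 7.59 TPM in the E4.5 ICM and 92.2 ± 23.0 TPM in 2iES cells (n = 2 each). *Dppa5a* ran the other way, from between 1753 and 2013 TPM at the late two-cell stage to 21478 and 21671 TPM in the ICM and 24136 and 27969 TPM in 2iES cells, where it made up 2.41% and 2.80% of all TPM. *Dppa2* averaged 488 ± 27.5 TPM and *Dppa4* 715 ± 26.7 TPM in late two-cell embryos, and both were lower in morulae, at 221 ± 55.4 and 209 ± 40.7 TPM. Their morula and ICM libraries overlapped. *Tcl1* was at 855 ± 140 TPM at the late two-cell stage, 3.87 ± 1.63 TPM in morulae, 249 ± 3.40 TPM in the ICM and 56.1 ± 9.36 TPM in 2iES cells, with no overlap between any of these stages. *Pim2* had the same dip in morulae at a lower level, from 10.1 ± 0.418 TPM to 1.46 ± 0.0424 TPM and back to 24.2 ± 0.728 TPM in the ICM. *Utf1*, *Tdgf1* and *Eras* were at or below 4.23 TPM in every DMSO late two-cell library and reached 257 ± 10.5, 314 ± 5.06 and 24.8 ± 2.14 TPM in the ICM. *Zfp42* stood at 17.7 ± 1.55 TPM at the late two-cell stage and between 86.0 and 134 TPM in all DMSO libraries of the later stages, and its morula and 2iES libraries overlapped.

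**Figure D1:**
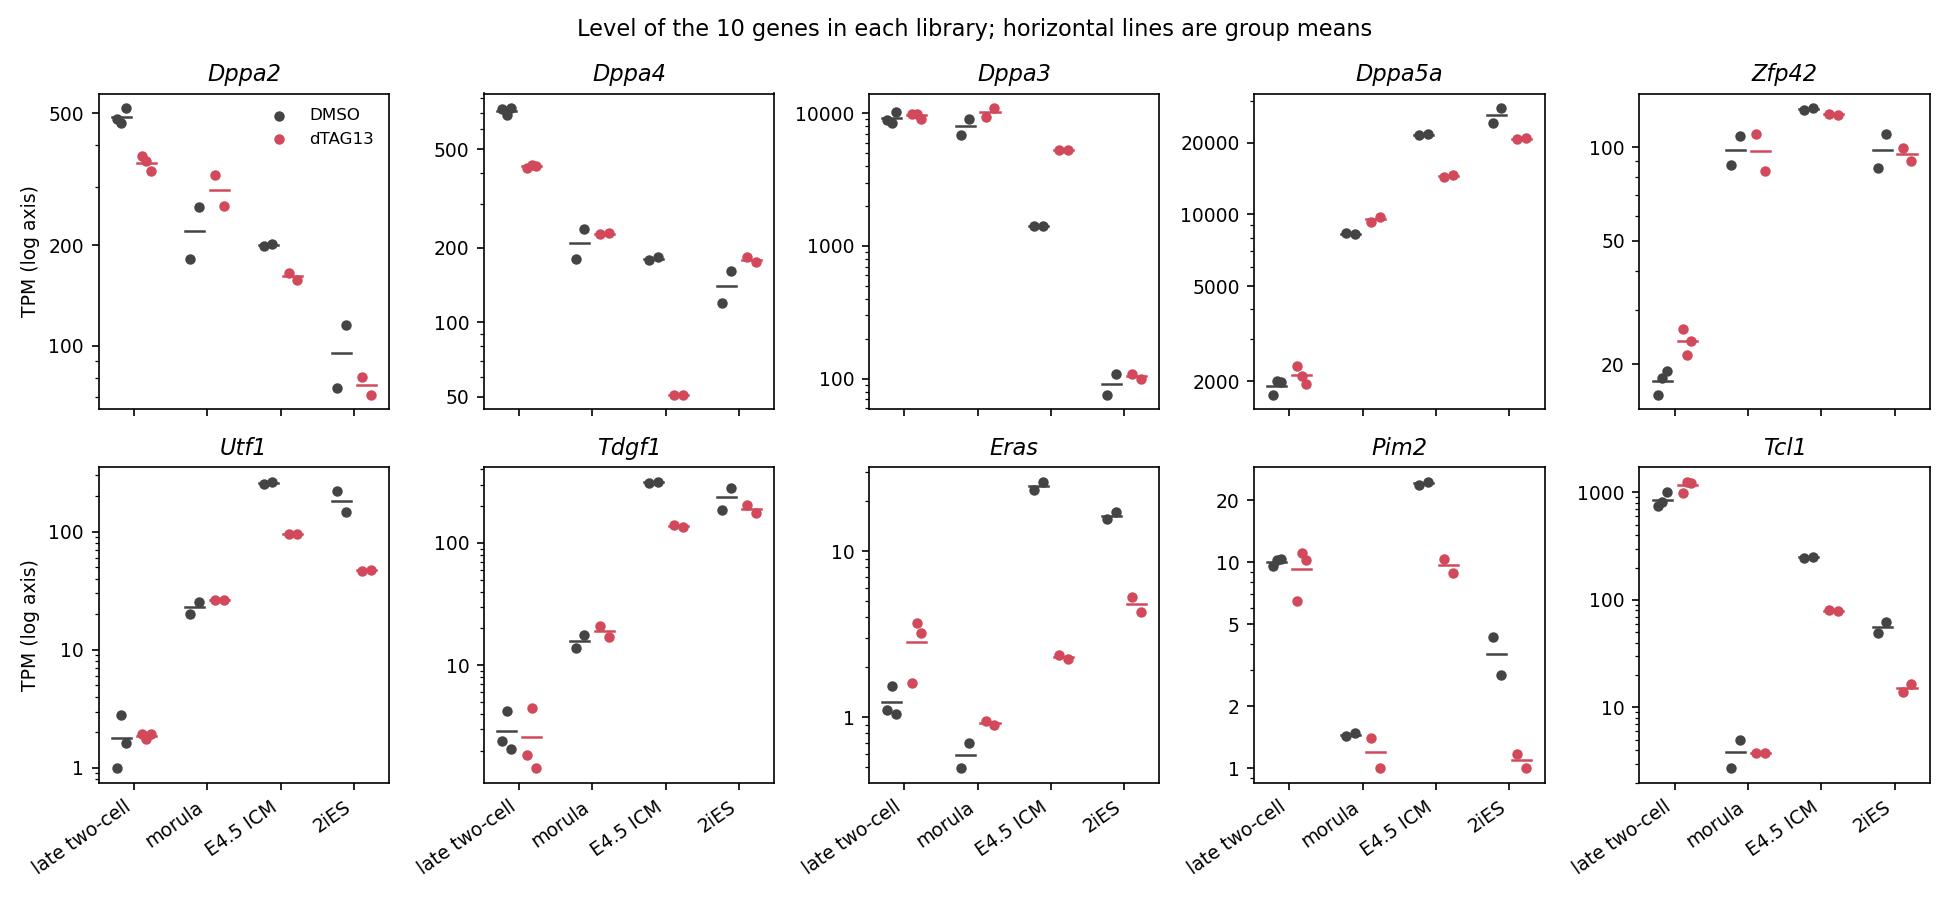
TPM of each of the 10 genes (log axis, a different range in each panel) in every library, by stage and treatment; each point is 1 library and each horizontal line a group mean. *Dppa3* in the E4.5 ICM is the 1 gene there whose libraries with dTAG13 (5281 and 5303 TPM) lie above those with DMSO (1407 and 1417 TPM).

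To compare neighbouring DMSO stages, expected counts were fitted by edgeR's quasi-likelihood method, with Benjamini-Hochberg adjustment over all genes. A gene is called where the adjusted p is under 0.05, the change at least 2-fold and the mean FPKM at least 1 in 1 of the groups. From the late two-cell stage to morulae, 3 of the 10 genes were called lower (background 29.9% of genes) and 4 higher (24.3%), while the median gene fell by 0.37 on the log2 scale. The test alone passed 4 of the 10 downwards (39.8%) and 4 upwards (30.4%). *Tcl1* fell by 7.50 (SE 0.29, adjusted p = 2.1e-08), *Pim2* by 2.35 (SE 0.28) and *Dppa4* by 1.40 (SE 0.15), and *Dppa2*, at -0.79 (SE 0.16, adjusted p = 0.00149), passed the test at less than 2-fold. *Utf1* rose by 4.00 (SE 0.40), *Tdgf1* by 2.87 (SE 0.35), *Zfp42* by 2.81 (SE 0.17) and *Dppa5a* by 2.50 (SE 0.13). From morulae to the E4.5 ICM, 1 gene was called lower (19.6%), *Dppa3* at -3.06 (SE 0.16), and 5 higher (18.6%): *Tcl1* at 5.50 (SE 0.24), *Eras* at 4.77 (SE 0.25), *Tdgf1* at 3.84 (SE 0.14), *Pim2* at 3.48 (SE 0.16) and *Utf1* at 2.95 (SE 0.14). All of these passed under each of 13 alternatives. *Dppa2* at -0.66 (SE 0.17, adjusted p = 0.0155) and *Dppa4* at -0.72 (SE 0.14, adjusted p = 0.00621) passed the test at less than 2-fold, but neither did so in limma on TPM (adjusted p = 0.615 and 0.341) or without either ICM library, and *Dppa5a* was at 0.79 (SE 0.12). The test alone thus passed 3 genes downwards (30.3%) and 6 upwards (31.4%). Between the DMSO E4.5 ICM and DMSO 2iES cells, 3 genes were called lower in the cells (18.4%) and none higher (15.2%): *Dppa3* at -3.39 (SE 0.21), *Pim2* at -2.18 (SE 0.20) and *Tcl1* at -1.57 (SE 0.15). The test alone passed these 3 (33.7%) and, upwards, *Dppa5a* (31.3%) at 0.82 (SE 0.10), which did not pass in limma on TPM (adjusted p = 0.078). The scaling matters for the other 7, since the median gene stood at -0.05 in this comparison after TMM scaling and at -0.44 with library totals alone, and higher calls made up 45.2% and 26.0% of all calls. *Utf1*, *Tdgf1*, *Zfp42* and *Dppa4* had positive log2 values after TMM scaling and lower TPM in 2iES cells, and are given no direction here. Among them, *Tdgf1* was at 0.42 without DMSO replicate 1 of 2iES cells and at -0.21 without replicate 2, and *Utf1* at -0.25 and 0.32. *Dppa2*, at -0.53 (SE 0.22, adjusted p = 0.0811), passed in 6 of 13 alternatives and was at -1.10 (adjusted p = 0.00912) in limma on TPM. *Eras*, at -0.05 (SE 0.15), was at -0.45 with library totals (adjusted p = 0.0339) and -0.57 in limma (adjusted p = 0.0136). From morulae to the ICM the same share was 48.7% and 59.8%, with medians of 0.05 and 0.32.

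At the late two-cell stage dTAG13 went with lower *Dppa2* and *Dppa4*, the heterodimer pair, and with no change of the other 8 genes that passed the test. *Dppa4* measured 728, 684 and 733 TPM with DMSO and 420, 430 and 427 TPM with dTAG13. Every dTAG13 library was thus below every DMSO library, and *Dppa4* fell by 0.81 on the log2 scale (SE 0.07, adjusted p = 4.37e-05), or 1.76-fold. *Dppa2* measured 479, 465 and 518 TPM with DMSO and 372, 358 and 334 TPM with dTAG13, again without overlap, and fell by 0.52 (SE 0.08, adjusted p = 0.00148), or 1.43-fold. Both passed the test under all 15 alternatives, and neither reached 2-fold. So 2 of 10 genes passed the test downwards (background 7.24%) and none upwards (1.32%), and none was called in either direction (3.63% and 0.476%). Without overlap were 2 lower genes (12.9%) and, with higher TPM, *Zfp42* and *Eras* (14.8%). In bulk libraries such as these, fewer cells of a type and less RNA per cell cannot be told apart.

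Among the other genes at this stage, *Eras* read 1.11, 1.53 and 1.04 TPM with DMSO and 1.61, 3.69 and 3.21 TPM with dTAG13. Its groups did not overlap, but it rests on 22.5 to 85.3 expected counts a library, and the log2 difference of 1.14 (SE 0.45) had an adjusted p of 0.172 (0.0217 in a fit of all 18 libraries). *Zfp42* read 15.95, 18.1 and 19.0 TPM with DMSO and 26.0, 21.4 and 23.7 TPM with dTAG13, a log2 difference of 0.35 (SE 0.15, adjusted p = 0.19). *Tcl1* read 745, 807 and 1012 TPM against 995, 1259 and 1219 TPM, which overlapped, with a log2 difference of 0.37 (SE 0.13, adjusted p = 0.115). It passed in 3 of 15 alternatives, with adjusted p between 0.0017 and 0.353 over all of them, 1 of which left out DMSO replicate 3 (adjusted p = 0.0441). *Dppa3*, at 8859, 8459 and 10184 TPM with DMSO and 9919, 9834 and 9027 TPM with dTAG13, differed by 0.00 on the log2 scale with a 95% interval from -0.16 to 0.17. *Dppa5a* differed by 0.09 (interval -0.12 to 0.29) and *Pim2* by -0.15 (interval -0.63 to 0.33). *Utf1* and *Tdgf1* were at 0.99 to 4.48 TPM in all 6 libraries, and their intervals were wide, from -1.03 to 0.95 and from -1.17 to 0.92.

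Of 10 two-cell genes, some of which lie under DPPA2 and DPPA4, none passed the test at this stage, with a median log2 difference of 0.28 beside 0.02 over all genes. Their sum ranged from 256 to 654 TPM with DMSO and from 408 to 736 TPM with dTAG13, so that the groups overlapped. Of 10 germline genes, 1 passed, *Slc25a31*, a mitochondrial ADP/ATP carrier of the germline, at -0.74 (SE 0.14, adjusted p = 0.00787), named here after its value was seen. Of 9 NODAL pathway genes tested, 1 was called, the receptor gene *Acvr2a* at -1.12, and none of 8 genes around UHRF1 or of 14 core and naive factors tested passed. Of 16 genes around phosphatidylinositol 3-kinase and AKT, 2 passed downwards and none upwards, and *Eif4ebp1*, which encodes the translation repressor 4E-BP1, was called at -1.13 (SE 0.16, adjusted p = 0.00117). Of 10 oocyte transcripts, 1 passed upwards and none was called, with a median of 0.20. They summed to 1418 to 1425 TPM with DMSO and 1793 to 2028 TPM with dTAG13. Of 6 cumulus cell markers 2 were tested, of which 1 passed upwards and 0 were called. All 6 summed to 3.8 to 5.88 and 7.42 to 12.1 TPM, with *Amh* at 0 in both groups. Their part in the results was not tested.

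In morulae none of the 10 genes passed the test. The share of all genes that passed was 0.205% downwards and 0.161% upwards, and 0.198% and 0.154% were called. The called genes were 27 lower and 21 higher, and 132 and 234 without DMSO replicate 2. Without dTAG13 replicate 2 they were 77 and 60, and without dTAG13 replicate 1 the second was 64. Of the 10 genes none had an unadjusted p under 0.05, and DESeq2 passed none of them. *Dppa2* came nearest, with 182 and 261 TPM with DMSO and 326 and 263 TPM with dTAG13, a log2 difference of 0.42 (SE 0.21, adjusted p = 0.406). *Dppa3* read 6845 and 9066 TPM against 9405 and 10941 TPM, a difference of 0.36 (SE 0.20, adjusted p = 0.451). *Dppa4* read 179.9 and 237 TPM against 226 and 230 TPM, which overlapped, and its interval ran from -0.29 to 0.56. *Zfp42* differed by -0.01 (interval -0.44 to 0.42) and *Tcl1*, at 2.71 and 5.02 against 3.78 and 3.81 TPM, by 0.05 (interval -0.78 to 0.87). Without overlap between the groups were 5 genes with higher TPM under dTAG13 (*Dppa2*, *Dppa3*, *Dppa5a*, *Utf1* and *Eras*; background 17.3%) and 1 with lower TPM (*Pim2*; 27.7%). *Eras* and *Pim2* rested on 5.75 to 13.3 and 27 to 40 expected counts a library, and the intervals of *Eras* reached from -0.98 to 2.16. Apart from *Eras* and *Pim2*, whose interval ran from -1.24 to 0.68, every interval excluded a 2-fold change in either direction. Of 8 genes around UHRF1 and DNA methylation, 1 was called, *Uhrf1* itself, at -1.30 (SE 0.22, adjusted p = 0.021). None of the other lists (9 NODAL pathway genes tested, 16 around AKT, 5 two-cell, 10 germline, 13 core and naive) had a gene that passed.

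In the E4.5 ICM all 10 genes moved beyond the spread of their libraries, and 7 of them by at least 2-fold. *Eras*, *Dppa4*, *Tcl1*, *Utf1*, *Pim2* and *Tdgf1* fell and *Dppa3* rose, while *Dppa5a*, *Dppa2* and *Zfp42* passed the test at smaller changes. The test passed 38.5% of all genes downwards and 38.4% upwards at this stage, so 9 down and 1 up among 10 is to be read against a background of most genes. Called were 6 genes lower (13.2%) and 1 higher (12.1%), and the TPM of the groups did not overlap for 9 lower genes (39.3%) and 1 higher (45.5%). The libraries of a group lay so close together here that the test passed differences as small as that of *Zfp42*. In a fit of all 18 libraries, which assumes the same spread at every stage, *Zfp42* (adjusted p = 0.757) and *Dppa2* (adjusted p = 0.167) did not pass, and the other 8 did. The median log2 difference of the 10 genes was -1.29, beside 0.01 over all genes.

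*Eras* read 23.3 and 26.3 TPM with DMSO and 2.36 and 2.23 TPM with dTAG13. Both treated libraries were thus far below both controls, and *Eras* fell by 3.47 on the log2 scale (SE 0.14, adjusted p = 1.27e-22), or 11.05-fold. Of its exonic bases, 12.5% lie opposite *Pcsk1n* on the other strand, and the library method does not mark strand. *Pcsk1n* read 4.02 to 4.47 TPM with DMSO and 0.33 to 0.45 TPM with dTAG13, on 185 to 187 and 14.0 to 18.1 expected counts beside the 477 to 494 and 42 to 42.88 of *Eras*. *Tcl1* read 247 and 251 TPM against 79.9 and 78.7 TPM and fell by 1.73 (SE 0.03, adjusted p = 2.83e-33), or 3.32-fold. *Pim2* read 23.7 and 24.7 TPM against 10.4 and 8.90 TPM and fell by 1.33 (SE 0.07, adjusted p = 2.13e-18). The 3 genes that encode proteins around AKT signalling therefore all fell, each without overlap. Of the 16 other genes around this pathway, 6 passed the test downwards and 6 upwards, with a median of 0.11, and 1 was called lower and 3 higher. The 2 called with the largest change were *Eif4ebp1* at -2.22 (SE 0.02), and *Pik3cb*, a catalytic subunit of the kinase, at 1.41 (SE 0.07).

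*Dppa4* read 179 and 183 TPM with DMSO and 51.0 and 51.2 TPM with dTAG13. It fell by 1.86 (SE 0.04, adjusted p = 1.86e-32), or 3.62-fold. Its partner *Dppa2* read 199 and 202 TPM against 166 and 157 TPM and fell by 0.36 (SE 0.03, adjusted p = 4.67e-14), or 1.28-fold. The neighbours thus parted in the ICM, and their 95% intervals, from -1.93 to -1.78 and from -0.42 to -0.30, did not meet. Of 10 germline genes, 1 passed the test downwards and 7 upwards, with a median of 0.99 beside 0.01 over all genes, and 1 was called lower and 4 higher. The 2 largest changes called were *Dazl*, an RNA-binding protein of germ cells, at -3.18 (SE 0.11), and *Mael*, of the piRNA pathway, at 1.91 (SE 0.07). Of the 10 two-cell genes 4 passed the filter on low counts, of which 3 passed the test downwards and 1 upwards. All 10 together summed to only 6.43 to 7.58 TPM with DMSO, with 5 at 0, and 4.01 to 5.79 TPM with dTAG13.

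*Dppa3* was the exception in direction, with 1407 and 1417 TPM with DMSO and 5303 and 5281 TPM with dTAG13. It rose by 1.87 (SE 0.02, adjusted p = 4.19e-41), or 3.65-fold, and its level with dTAG13 lay between those of DMSO morulae (6845 and 9066 TPM) and DMSO ICM. Of 8 genes around UHRF1 and DNA methylation, 7 passed the test downwards and 1 upwards, with a median of -0.66, and 3 were called lower and none higher. *Dnmt1*, the maintenance methyltransferase, was called at -1.34 (SE 0.07) and *Uhrf1*, the partner through which DPPA3 acts, at -1.23 (SE 0.04). *Dppa3* shares 29.6% of its 31-base words with other genes, chiefly with the pseudogene *Dppa3-ps*, which read 1.79 to 3.54 TPM with DMSO and 9.02 to 10.2 TPM with dTAG13.

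*Tdgf1* read 311 and 318 TPM with DMSO and 140 and 134 TPM with dTAG13, and fell by 1.25 (SE 0.03, adjusted p = 1.05e-31), or 2.38-fold. Of 12 NODAL pathway genes tested, 5 passed the test downwards and 6 upwards, and at 2-fold 5 were called lower and 1 higher. The 2 with the largest change were called in opposite directions. *Lefty2*, a feedback inhibitor of NODAL, was called at -4.19 (SE 0.10) and *Acvr1b*, a type I receptor for NODAL, at 1.83 (SE 0.17). *Utf1* read 249.8 and 265 TPM against 94.9 and 95.8 TPM and fell by 1.47 (SE 0.03, adjusted p = 7.64e-31), or 2.77-fold. *Dppa5a* read 21478 and 21671 TPM against 14362 and 14643 TPM and fell by 0.60 (SE 0.02, adjusted p = 4.57e-27). It stood at the 99.99th percentile of detected genes with DMSO and at the 99.98th with dTAG13. *Zfp42* read 131 and 134 TPM against 128 and 127 TPM, a fall of 0.10 (SE 0.03, adjusted p = 0.00349), or 1.07-fold, which did not pass with library totals alone (adjusted p = 0.294) or in limma on TPM (adjusted p = 0.15). Of 15 core and naive pluripotency factors, 10 passed the test downwards and 4 upwards, with a median of -0.46, and 5 were called lower and none higher. The 2 called with the largest change were *Prdm14*, a repressor of differentiation and of DNA methylation genes, at -3.99 (SE 0.13), and *Sox2*, the partner of OCT4, at -2.29 (SE 0.09).

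Sums of lineage markers in the ICM libraries moved with the treatment, which measure RNA and do not count cells. The paper states that EPI cell number did not yet differ between DMSO and dTAG13 at the 100 hpf of collection. The 8 EPI markers summed to 292 and 295 TPM with DMSO and 111 and 114 TPM with dTAG13, and 7 of them were called lower and 1 higher. The 10 PrE markers summed to 590.0 and 599 TPM against 1126 and 1136 TPM, with 7 passing the test upwards and 2 downwards. Markers of trophectoderm (TE), the layer that immunosurgery removes, summed to 81.3 and 87.9 TPM against 879 and 880 TPM, with 10 of 11 called higher and none at 0 in either group. The part of these lineages in the changes of the 10 genes was not tested. The plot of marker sums shows them beside the other stages.

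**Figure D2:**
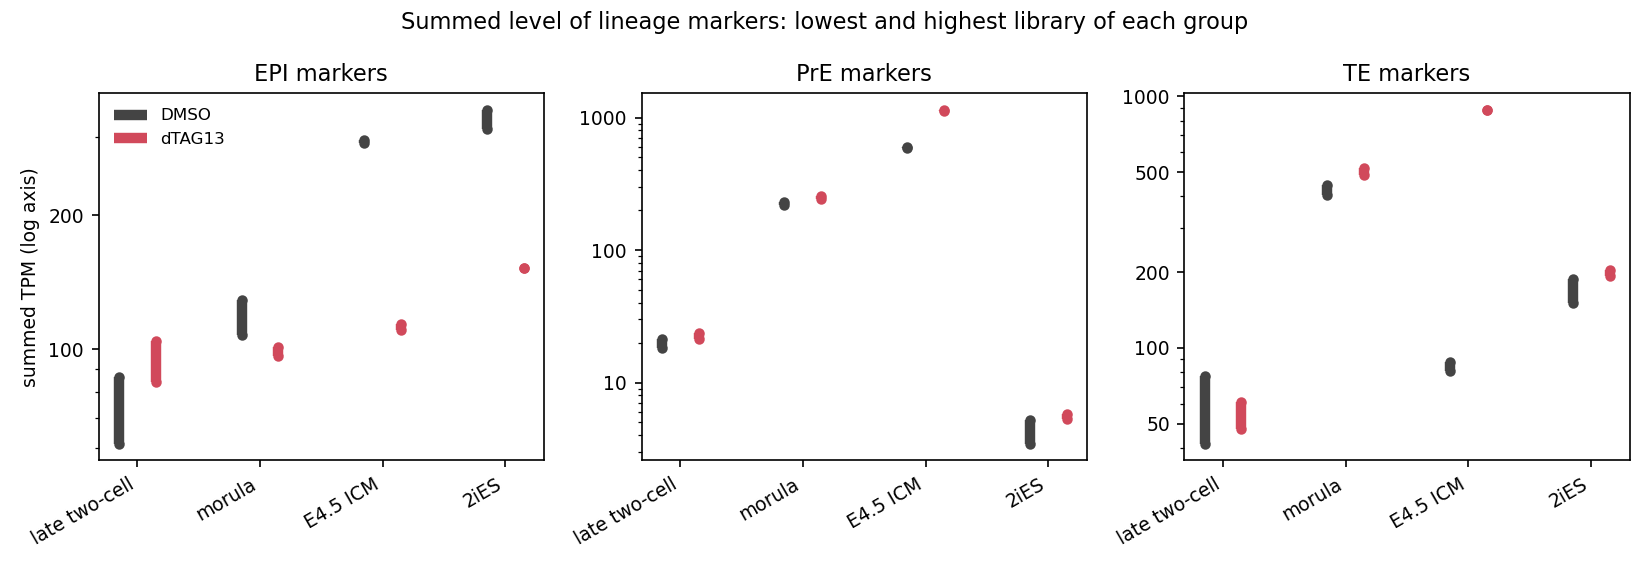
Summed TPM of 8 EPI, 10 PrE and 11 TE markers (log axis) by stage and treatment; points and the bar joining them are the lowest and highest library of each group. In the E4.5 ICM, EPI markers lie lower with dTAG13 (111 to 114 against 292 to 295 TPM) and TE markers higher (879 to 880 against 81.3 to 87.9 TPM).

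**Figure D3:**
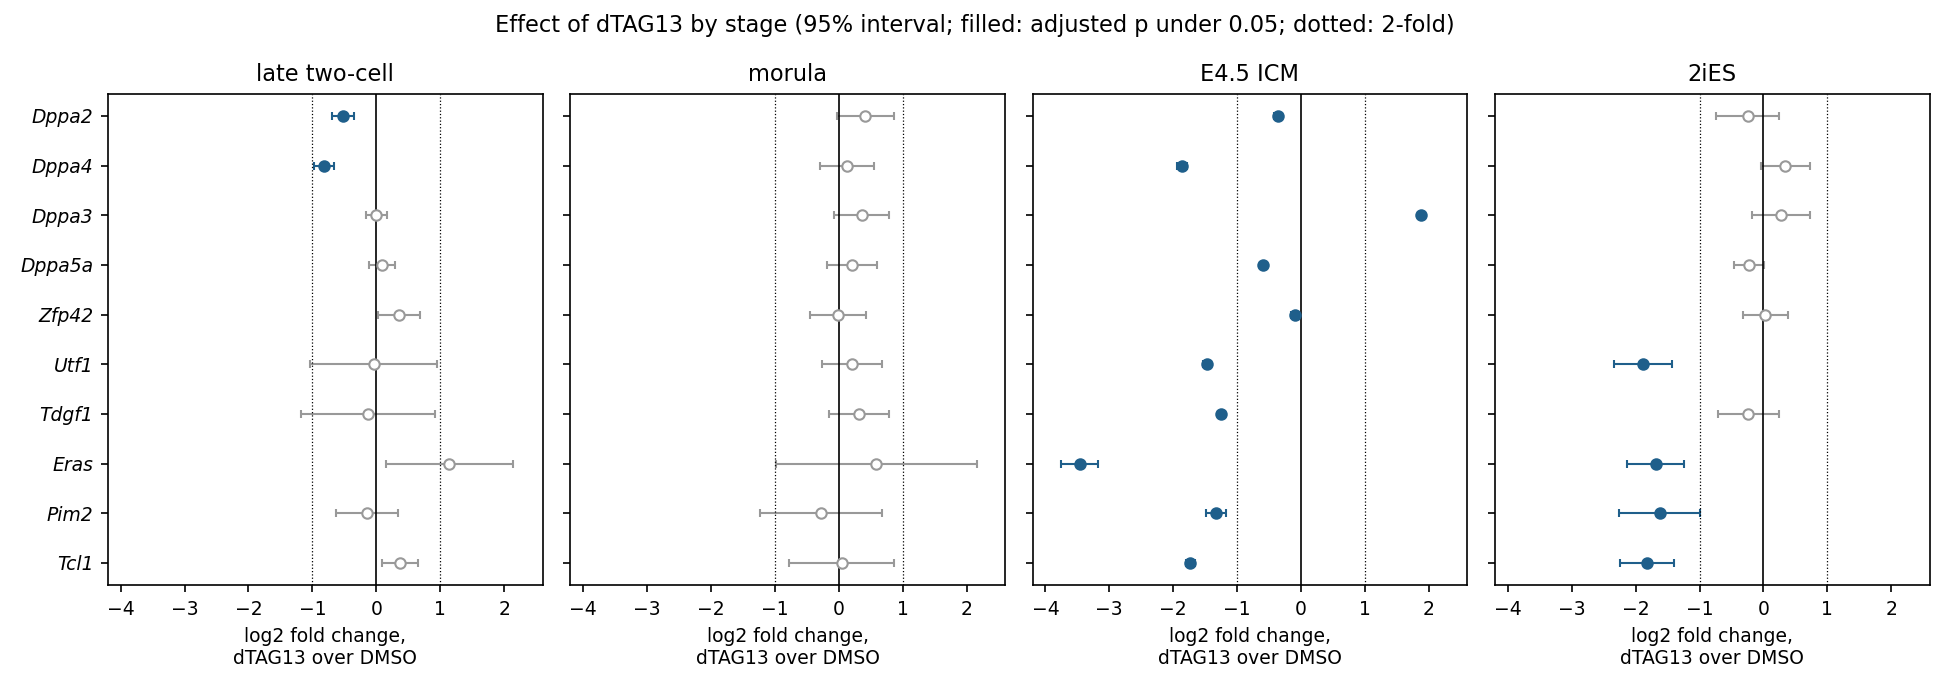
Log2 fold change of dTAG13 over DMSO (horizontal axis) for each gene at the 4 stages with 95% intervals; filled points passed the test and dotted lines mark 2-fold. *Dppa2* and *Dppa4* are filled at the late two-cell stage, none in morulae, all 10 in the E4.5 ICM, and *Utf1*, *Eras*, *Pim2* and *Tcl1* in 2iES cells.

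In 2iES cells 4 of the 10 genes fell by at least 2-fold, *Utf1*, *Tcl1*, *Eras* and *Pim2*, and the other 6 did not pass the test. Called lower were thus 4 genes (background 15.6%) and higher none (12.4%); 28.1% and 26.5% of all genes passed the test. The median log2 difference of the 10 genes was -0.24, beside 0.03 over all genes. *Utf1* read 220.5 and 145 TPM with DMSO and 46.2 and 47.5 TPM with dTAG13. The treated libraries lay below both controls, which differed 1.52-fold from each other, and *Utf1* fell by 1.88 (SE 0.19, adjusted p = 0.000377), or 3.68-fold. *Tcl1* read 49.5 and 62.7 TPM against 13.9 and 16.4 TPM and fell by 1.83 (SE 0.18, adjusted p = 0.000314), or 3.55-fold. *Eras* read 15.6 and 17.1 TPM against 5.27 and 4.29 TPM and fell by 1.69 (SE 0.19, adjusted p = 0.000541), or 3.22-fold. *Pim2* read 4.36 and 2.83 TPM against 1.18 and 1.01 TPM and fell by 1.63 (SE 0.27, adjusted p = 0.00263), or 3.09-fold. These 4 passed under every one of 14 alternatives, without overlap of the groups. With *Dppa5a* they made 5 genes lower without overlap (36.9%), and *Dppa4* was the 1 higher (41.8%).

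The other 6 genes did not pass, and the value for each changed when 1 DMSO library was left out. That leaves 1 control library with no spread of its own, so only the log2 difference is given for it. *Tdgf1* read 187 and 284 TPM with DMSO and 202 and 177 TPM with dTAG13, which overlapped, with a log2 difference of -0.24 (SE 0.20, adjusted p = 0.342). Without DMSO replicate 1 it was -0.55. *Dppa2* read 74.8 and 115 TPM against 80.6 and 71.1 TPM, a difference of -0.25 (SE 0.21, adjusted p = 0.345), and -0.57 without that library. *Dppa4* read 119 and 161 TPM against 183 and 175 TPM, with the treated libraries higher, a difference of 0.34 (SE 0.16, adjusted p = 0.11), and 0.58 without DMSO replicate 2. *Dppa3*, at 75.9 and 108 TPM against 109.5 and 99.5 TPM, differed by 0.27 (SE 0.19, adjusted p = 0.258), and by 0.55 without DMSO replicate 2. *Zfp42*, at 86.0 and 110.5 TPM against 99.6 and 90.5 TPM, differed by 0.03 (interval -0.32 to 0.38), and by -0.19 or 0.21 when DMSO replicate 1 or 2 was left out. *Dppa5a*, at 24136 and 27969 TPM against 20669 and 20901 TPM, was lower in both treated libraries, at -0.23 (SE 0.10, adjusted p = 0.088), and at -0.37 without DMSO replicate 1. With both DMSO libraries kept but no count filter, *Dppa5a* (adjusted p = 0.00046), *Tdgf1* (0.0237) and *Dppa2* (0.0345) passed, and in the fit of 18 libraries *Dppa4* did (0.0416).

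The effective length of *Dppa4*, an average over its transcripts weighted by their estimated share, was 1243 and 1245 bases with DMSO and 1180 bases in both treated libraries of 2iES cells, and 1118 to 1161 bases in all embryo libraries. This length also depends on the fragment lengths of each library. Whether the share of its transcripts differed between 2iES cells and embryos, or with dTAG13, was not tested, since the values used here are per gene.

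Of the pathway genes in 2iES cells, 4 of 8 around UHRF1 and DNA methylation passed downwards and 1 upwards, and *Uhrf1* was called at -1.02 (SE 0.12, adjusted p = 0.00061). Of 12 NODAL pathway genes tested, 3 passed downwards and 5 upwards, 2 and 3 of them called, with *Lefty2* at -2.33 (SE 0.17) and *Smad3*, an intracellular mediator of NODAL, at 1.57 (SE 0.26). Of 16 genes around AKT, 5 passed downwards and 4 upwards, 4 and 2 of them called, with the kinase subunits *Pik3cd* at -2.10 (SE 0.42) and *Pik3cb* at 1.47 (SE 0.14). Of the 15 core and naive factors, 6 passed downwards and 4 upwards, 4 and 1 of them called, with *Pou5f1*, which encodes OCT4, at -1.75 (SE 0.16) and *Prdm14* at -1.62 (SE 0.22). Of 10 germline genes, 2 passed downwards and 4 upwards, and *Tex101* was called at 1.49 (SE 0.20). Two-cell genes, 8 of which could be tested, included 1 that passed, *Zscan4d*, at 1.93 (SE 0.57, adjusted p = 0.0256), and their sum ranged from 8.74 to 48.2 TPM with DMSO and 33.2 to 102 TPM with dTAG13. The EPI markers summed to 312 and 345 TPM with DMSO and 152 and 153 TPM with dTAG13, the PrE markers to at most 5.76 TPM and the TE markers to 151 to 188 and 194 to 204 TPM. The part of these in the results was not tested.

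Whether the effect of dTAG13 differed between the E4.5 ICM and 2iES cells was tested as an interaction term over their 8 libraries, bearing in mind that concentration and duration differed too. The difference passed the test for 5 of the 10 genes, 4 with a more negative value in the ICM (background 21.8%) and 1 with a more positive one (20.1%). *Dppa4* differed by -2.22 (SE 0.19, adjusted p = 4.14e-05), from -1.86 in the ICM and 0.34 in the cells. *Eras* differed by -1.80 (SE 0.23, adjusted p = 0.000353), although it fell in both. *Tdgf1* differed by -1.02 (SE 0.24, adjusted p = 0.00763) and *Dppa5a* by -0.39 (SE 0.11, adjusted p = 0.0214). *Dppa3* differed by 1.58 (SE 0.21, adjusted p = 0.000402). In the fit of all 18 libraries *Tdgf1* (adjusted p = 0.15) and *Dppa5a* (adjusted p = 0.079) did not pass, and *Dppa5a* did not pass when any 1 library of the ICM groups or of the treated 2iES group was left out (adjusted p between 0.0598 and 0.0914). Without DMSO replicate 1 of 2iES cells, which leaves 1 control library there, *Dppa2* was at 0.21 and *Tcl1* at 0.32. Without DMSO replicate 2, *Utf1* was at 0.68, *Pim2* at 0.57, *Zfp42* at -0.33 and *Dppa2* at -0.47. For *Tcl1* the difference was 0.08 (interval -0.34 to 0.50), for *Pim2* 0.28 (-0.33 to 0.88) and for *Utf1* 0.38 (-0.07 to 0.84). Those for *Dppa2* and *Zfp42* were -0.13 (-0.69 to 0.43) and -0.14 (-0.52 to 0.24).

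**Figure D4:**
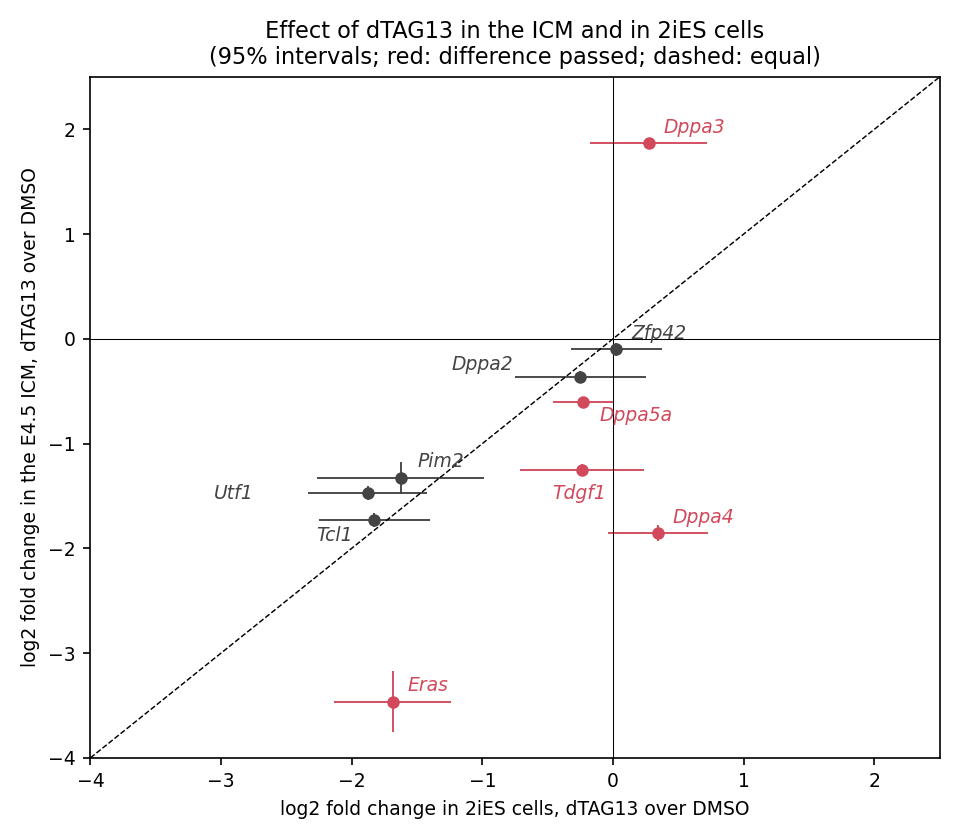
Log2 fold change of dTAG13 over DMSO in 2iES cells (horizontal axis) and in the E4.5 ICM (vertical axis) for the 10 genes with 95% intervals; the dashed line marks equal effects and red genes passed the test of the difference. *Dppa3* lies above the line, *Dppa4*, *Eras*, *Tdgf1* and *Dppa5a* below it, and *Tcl1*, *Utf1* and *Pim2* near it between -1.33 and -1.88 on both axes.

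A list of 15 genes held those that share a family or, as *Dppa1*, a name with the 10 genes. Of these, 14 could be tested at the late two-cell stage, where none passed, and 10 in morulae, where none passed either. In the E4.5 ICM 10 were tested and 5 passed in each direction. Called there were 2 lower and 2 higher, with the largest changes in *Yy2*, a zinc-finger relative of *Zfp42*, at -2.18 (SE 0.23), and *Dppa1* at 2.97 (SE 0.06). In 2iES cells 2 of 9 tested passed downwards, neither by 2-fold.

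The genes whose course was most like that of each gene were found over the 8 group means, as the Pearson r of log2(TPM + 1) among 9381 genes with a group mean of at least 10 TPM. These are descriptions over few points that share libraries. *Dppa3* was closest to *Fbxo15* (r = 0.999), which encodes an F-box protein of embryonic cells, and to *Gm13102* (0.992). *Pim2* was closest to *Mcm6*, of the replicative helicase (0.999), and *Twistnb* (0.993), *Tcl1* to *Spry4*, an inhibitor of receptor tyrosine kinase signalling (0.997), and *Ctnnbl1* (0.990), and *Dppa5a* to *Sh3glb2* (0.996) and *Svbp* (0.994). *Tdgf1* was closest to *Nradd* (0.995) and *Ccdc191* (0.991), *Zfp42* to *Ube2d-ps* (0.994) and *Cyct* (0.992), and *Utf1* to *Phpt1* (0.993) and *Nudt5* (0.991). *Dppa4* was closest to *Rbpj-ps3* (0.990) and *Pbdc1* (0.959), and *Dppa2* to *Gm28306* (0.983) and *Cxadr* (0.980). *Eras* had the least company, with *Lefty2* (0.964) and *Epp13* (0.963) the only 2 genes above 0.95, whereas *Zfp42* had 222 such genes and *Dppa5a* 212. Among the 10 genes themselves the closest pairs were *Dppa5a* with *Tdgf1* and with *Utf1* (0.962 each) and *Utf1* with *Tdgf1* (0.958), and *Dppa2* was closest to *Dppa3* (0.887).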

How the data were processed

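Full-length cDNA libraries (SMART-Seq v4, Nextera XT, unstranded) were sequenced on an Illumina NextSeq. The authors trimmed the reads with Trimmomatic (version 0.39 in the submitters' processing notes), aligned them with STAR and estimated gene levels with RSEM. The deposited tables hold, for each of the 18 libraries, expected counts, TPM and FPKM values per gene, all as RSEM made them, with expected counts not normalized and TPM and FPKM scaled by length and library. Groups followed the labels.

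Expected counts were rounded to whole numbers, genes were kept where the number of libraries with at least 10 counts reached the size of the smaller group, and counts were scaled by TMM and tested by edgeR's quasi-likelihood test (edgeR 4.0.16, limma 3.58.1, R 4.3.3) within each comparison, two-sided, with Benjamini-Hochberg adjustment over all genes tested. Calls needed an adjusted p under 0.05, a 2-fold change and, in either group, a mean FPKM reaching 1. DESeq2 1.42.0, which the authors used, other scalings, no filter, limma on log2(TPM + 1), leaving out libraries, the replicate number as a block and fits of all libraries were alternatives. Levels were computed in Python 3.11.15 with pandas 2.3.3. The scripts were tested on simulated data. RSEM divides reads shared between genes, and 31-base words shared with other genes made up 57.2% of those of *Dppa5a*, 40.1% of *Dppa4* and 33.8% of *Dppa2*, so these carry that uncertainty. The 10 genes and the 12 other gene lists were chosen with earlier results of these data known. List genes were named only where called, at most the 2 with the largest change at a stage, with exceptions stated, and the 2 genes most like each gene were taken by r over group means. Totals of 9457933 to 27660132 counts limit *Eras*, *Utf1* and *Tdgf1* at the late two-cell stage and *Eras* and *Pim2* in morulae. Binding and chromatin files were not used here.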

Additional observations from a re-analysis of the deposited data

Results flagged for a closer look

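The effect of dTAG13 differed between the E4.5 ICM and 2iES cells for 5 of the 10 genes in the interaction term of edgeR's quasi-likelihood fit over 8 libraries (Benjamini-Hochberg over all genes). The difference, ICM minus 2iES on the log2 scale, was -2.22 for *Dppa4*, which fell in the ICM, -1.80 for *Eras*, which fell in both, -1.02 for *Tdgf1*, -0.39 for *Dppa5a* and 1.58 for *Dppa3*, which rose in the ICM. Of all genes, 21.8% differed downwards and 20.1% upwards. The concentration and length of treatment, the EPI, PrE and TE markers and the tissue itself cannot be told apart in this comparison. No library was compared with the others of its group for standing apart, since groups held 2 or 3.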

How the results depend on the processing

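Of 1089 values of single genes under an alternative, 977 kept their direction and side of the threshold, 21 no longer passed, 36 newly passed and 55 changed sign. The counts of called genes among the 10 changed in these cases. With no fold change threshold, 2 genes were lower at the late two-cell stage in place of 0, 9 lower in the ICM in place of 6, 4 lower from the late two-cell stage to morulae in place of 3, 3 lower and 6 higher from morulae to ICM in place of 1 and 5, and 1 higher between ICM and 2iES cells in place of 0. In limma, 4 were lower from the late two-cell stage to morulae, 6 higher from morulae to ICM (as with library totals) and 4 lower between ICM and 2iES cells in place of 3 (*Dppa2* added). Without DMSO replicate 2 of morulae, 4 were lower from the late two-cell stage. In a fit of all 18 libraries, 1 was higher at the late two-cell stage (*Eras*) and 2 more negative in the ICM than in 2iES cells. Without a count filter, 2 were more positive there (*Utf1* added). Leaving out 1 library gave 3 to 6 genes more negative and 1 to 3 more positive in that comparison, the 3 without either DMSO library of 2iES cells.

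The cause of these sign changes was not tested. At the late two-cell stage *Utf1* was at 0.0436 with library totals, 0.0785 in limma on log2(TPM + 1) and 0.0832 with the replicate block, and *Dppa3* at -0.01 in the fit of 18. In morulae *Zfp42* was at 0.0048 with DESeq2 size factors and in DESeq2 and at 0.0701 in the fit of 18, and *Tcl1* at -0.0189 with library totals. In 2iES cells *Zfp42* was at -0.0523 without a count filter and -0.0385 in limma. From the late two-cell stage to morulae *Dppa3* was at -0.21 in limma. From morulae to ICM *Zfp42* was at 0.17 with library totals, 0.0534 without a count filter, 0.44 in limma (adjusted p = 0.0487) and 0.0595 in a fit of all 9 DMSO libraries. Between ICM and 2iES cells, with library totals and in limma, *Tdgf1* was at -0.27 and -0.45, *Utf1* at -0.35 and -0.52, *Zfp42* at -0.28 and -0.44, *Dppa4* at -0.0938 and -0.38, and *Eras* was at 0.0205 in the fit of 9.

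Leaving out each library in turn, the signs changed within these ranges. At the late two-cell stage *Dppa3* ran from -0.0476 to 0.0645, *Tdgf1* from -0.79 to 0.30, *Utf1* from -0.35 to 0.47 and *Pim2* from -0.31 to 0.0551. In morulae *Tcl1* ran from -0.30 to 0.51, *Dppa4* from -0.0405 to 0.33 and *Zfp42* from -0.15 to 0.15. In 2iES cells *Dppa3* ran from -0.0094 to 0.55, *Zfp42* from -0.19 to 0.21, *Tdgf1* from -0.55 to 0.0857 and *Dppa2* from -0.57 to 0.0982. From the late two-cell stage to morulae *Dppa3* ran from -0.0383 to 0.34, and from morulae to ICM *Zfp42* from -0.21 to 0.0499. Between ICM and 2iES cells *Utf1* ran from -0.25 to 0.32, *Eras* from -0.15 to 0.0484, *Tdgf1* from -0.21 to 0.42 and *Zfp42* from -0.0892 to 0.31. For the ICM effect minus the 2iES effect *Zfp42* ran from -0.33 to 0.0912, *Dppa2* from -0.47 to 0.21 and *Tcl1* from -0.096 to 0.32. Where a group was left with 1 library, it was assumed to vary like the others.

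Same-numbered libraries deviated together only weakly (correlations of 0.037, 0.086 and 0.086 at the late two-cell stage, 0.03 in morulae, -0.022 in the ICM and -0.181 in 2iES cells). Different-numbered libraries at the late two-cell stage ran lower, from -0.087 to 0.003. Whether the numbers mark pairs was not settled, and the main fits did not pair them. The replicate block changed no count of called genes among the 10. It passed *Tcl1* at the late two-cell stage (adjusted p = 0.0178) and *Dppa2* between ICM and 2iES cells (0.00536), and moved the calls among all genes in morulae from 27 lower and 21 higher to 142 and 106. Crossed pairs in 2iES cells, added after the data were seen, called 4 of the 10 genes lower and none higher, and 2411 and 2019 of all genes, while *Dppa4* (0.36, adjusted p = 0.0273) and *Dppa5a* (-0.22, adjusted p = 0.0213) newly passed the test at less than 2-fold. Calls among all genes were 44.9% higher from the late two-cell stage to morulae and 34.8% in limma, 48.7% and 70.1% from morulae to ICM, 45.2% and 21.2% between ICM and 2iES cells, and in treated morulae 43.8% and, with library totals, 30.9%. Leaving out each library in turn, 25 to 132 genes were called lower and 17 to 234 higher in morulae. There all genes called were 66 lower and 45 higher in DESeq2. At the late two-cell stage 83 were higher in the fit reported, 132 in DESeq2 and 180 without a count filter. With each library left out in turn, 45 to 100 were higher at that stage.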
